A study of Mus musculus with 12 samples.

Results

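Genes of fatty acid oxidation and ketone body metabolism were followed in enteroids, which are organoids of gut epithelial cells and came here from wild-type C57Bl/6 mouse ileum. The 32 genes were taken by name from a table of 18068 genes, as a list of carnitine shuttle proteins, beta-oxidation enzymes, ketone body enzymes, acyl-CoA synthetases and their regulators, by function and not by a threshold on measured values. Enteroids were given both butyrate and IL-13, IL-13 alone at 20 ng/mL for 72 h, butyrate alone at 1 mM for 48 h, or neither, and each of these 4 groups (Butyrate + IL-13, IL-13, Butyrate and Untreated) had 3 libraries of poly(A) RNA. The combined group received the same doses for the same times, and all groups shared the strain and the culture medium. Butyrate is a short-chain fatty acid made by gut bacteria, and the cytokine IL-13 drives type 2 immune responses.

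Long-chain fatty acids are activated to acyl-CoA by synthetases, enter mitochondria through the carnitine shuttle, and are shortened by repeated rounds of dehydrogenation, hydration, a further dehydrogenation and thiolysis, with electrons passed to the respiratory chain by the electron transfer flavoprotein. Ketone bodies are made from the resulting acetyl-CoA and are turned back into it by the transferase encoded by Oxct1. Short-chain fatty acids such as butyrate and acetate can be oxidised after activation inside mitochondria, and butyrate is a known fuel of the colon epithelium.

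Library totals ran from 13867982 to 24294456 counts, and the 32 genes took 0.3201% to 0.3933% of them. Levels are given as CPM, the count scaled to a common library size after TMM normalisation, and a gene was called at an edgeR adjusted p under 0.05 over the 13750 genes tested. Replicates are not labelled by culture or animal; p-values therefore reflect nothing but differences among these libraries, which may be technical. Butyrate + IL-13 replicate 3 and Butyrate replicate 2 stood apart in Lars2, with 95476 and 97084 counts against 10057 to 36662 in the other libraries. Of 8 epithelial markers none was at 0 in any group, and of the adipocyte markers Plin4 reached at most 0.469 CPM. Adipoq, Plin1, Lep and Cfd had no counts to analyse here. The summed mesenchymal markers stayed between 1.58 and 4.26 CPM, and the endothelial ones between 1.06 and 3.5 CPM. The summed immune markers were higher, at 27.4 to 35.25 CPM. With IL-13 over Untreated, Cd68 of 4 immune markers tested (25%) and 2 of 2 endothelial markers tested were called higher, against 21.8% of all genes. The 1 mesenchymal marker tested, Pdgfrb, was called lower in that comparison (log2 fold change -1.19), against 21.7% of all genes. It was called higher in Butyrate + IL-13 over IL-13 (0.98), against 9.85%. Lyz2 of the immune markers was called higher with Butyrate over Untreated (25%), against 5.14%. In Butyrate + IL-13 over Butyrate, Lyz2 was called lower and Cd68 and Vwf higher, against 24.9% and 22.9%. In bulk RNA of this kind, fewer cells of a type and less RNA per cell cannot be told apart.

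IL-13 moved the oxidation genes in both directions, butyrate alone moved few of them, and the members called in the combined group were mostly higher than with either agent alone. Of the 32 genes 31 passed the filter on low counts; Pdk4 did not. With IL-13 over Untreated, 10 members rose and 11 fell, which is 32.3% and 35.5% of the members tested, against 21.8% and 21.7% of all genes called in those directions. With Butyrate over Untreated, 1 rose and 4 fell, or 3.23% and 12.9%, against 5.14% and 2.76% of all genes. With Butyrate + IL-13 over IL-13, 11 rose and 2 fell, or 35.5% and 6.45%, against 9.85% and 11.3%. With Butyrate + IL-13 over Butyrate, 17 rose and 7 fell, or 54.8% and 22.6%, against 22.9% and 24.9%. In all, 29 members were called in at least 1 comparison, and Acadm and Hadhb in none. The share of all genes called in at least 1 comparison was not counted, so this number is not read as a trait of the members.

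No member was called in opposite directions by IL-13 over Untreated and by Butyrate + IL-13 over Butyrate. The fitted signs were opposite for 4: Bdh1 (-0.08, then 0.28), Acss2 (-0.26, then 0.11), Acat1 (-0.16, then 0.11) and Acadm (-0.14, then 0.06), with Acss2 called in the first comparison and Bdh1 in the second. The 10 members that rose over Untreated also rose over Butyrate in the combined group: Slc25a20, Crat, Acadvl, Hadha, Echs1, Etfdh, Oxct1, Acsl1, Acss1 and Ppargc1a. The 7 that fell both times were Cpt1a, Acads, Hadh, Acaa2, Slc27a2, Ppara and Angptl4. Shares of all genes with the same pair of calls were not counted. A further 7 were called higher over Butyrate and not over Untreated (Cpt2, Ehhadh, Eci2, Ech1, Etfa, Etfb and Bdh1), and 4 were called lower over Untreated and not over Butyrate (Acadl, Eci1, Decr1 and Acss2). With plain library totals 3 of these 4 were called lower over Butyrate too: Acadl (-0.3, edgeR adjusted p = 0.035), Eci1 (-0.34, adjusted p = 0.0083) and Decr1 (-0.32, adjusted p = 0.0099). Scaling mattered for the balance of calls: with plain library totals in place of TMM, the combined group had 12 members higher and 10 lower than Butyrate, against 17 and 7, and 8 higher and 3 lower than IL-13, against 11 and 2. The median log2 fold change of all genes was then -0.27 and -0.14 in those comparisons, against -0.04 and -0.01 with TMM. Values that stayed called but moved by over 1.5 times were then, for IL-13 over Untreated, 0.25 for Slc25a20, 0.3 for Echs1, 0.21 for Etfdh, 0.22 for Acss1, -0.5 for Decr1 and -0.43 for Acss2. For Butyrate + IL-13 over Butyrate they were 0.38 for Slc25a20, 0.26 for Hadha, 0.42 for Echs1, 0.33 for Eci2, 0.42 for Etfa, 0.26 for Etfdh, -0.53 for Cpt1a, -0.63 for Acads, -0.63 for Hadh, -0.6 for Acaa2 and -0.5 for Slc27a2.

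**Figure D1:**
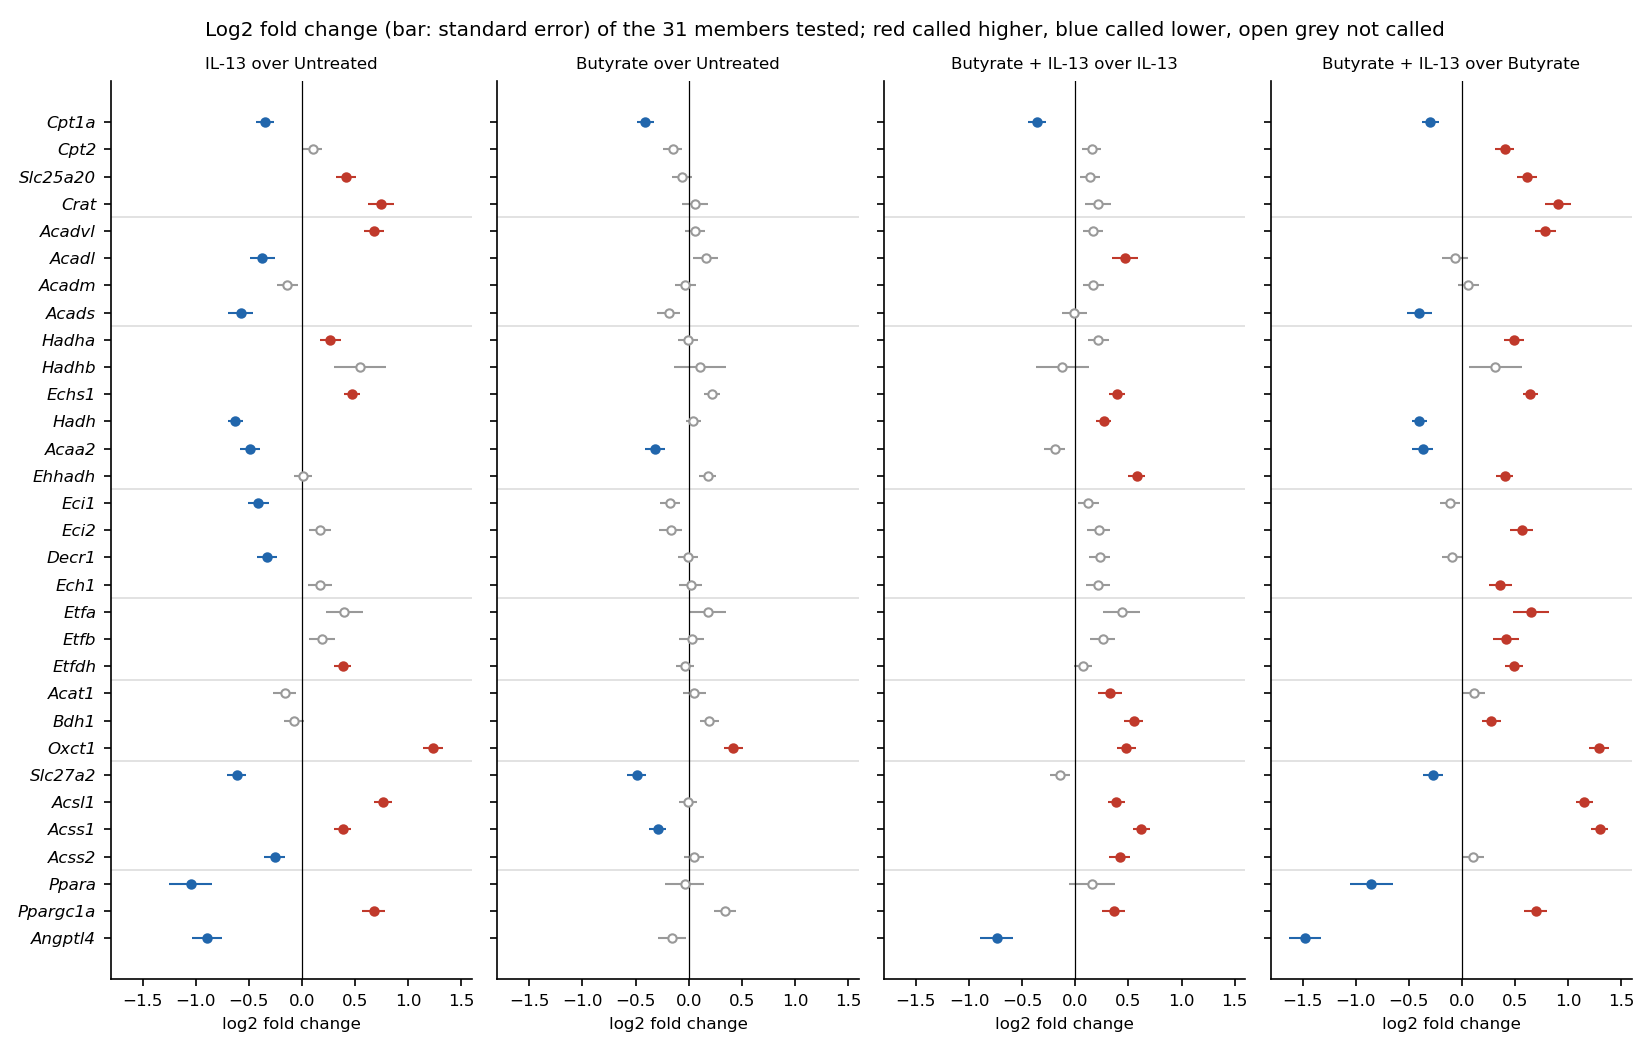
Log2 fold change with its standard error for the 31 members tested (rows, grouped by role) in 4 comparisons (panels), from 3 libraries per group; red and blue points passed an edgeR adjusted p of 0.05 and open grey points did not. Oxct1 was called higher in all 4 panels and Cpt1a lower in all 4, and the Butyrate over Untreated panel holds 5 called members.

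Of the 32 members, 4 were called in the same direction by each agent alone. Cpt1a, Slc27a2 and Acaa2 fell with IL-13 and with butyrate, and Oxct1 rose with both. The share of all genes called in this way was not counted, so the 4 are a description only. The promoters of Cpt1a, Slc27a2 and Oxct1, from 250 bases before to 50 after the RefSeq transcript start on the plus strand of GRCm38.p6, are shown because these genes responded to both agents. They lie at chr19:3323051-3323350, chr2:126552774-126553073 and chr15:4026178-4026477. Capitals mark the hexamer AGGTCA, read here on the opposite strand as TGACCT, which is the core that nuclear receptors such as PPAR alpha recognise.
Cpt1a: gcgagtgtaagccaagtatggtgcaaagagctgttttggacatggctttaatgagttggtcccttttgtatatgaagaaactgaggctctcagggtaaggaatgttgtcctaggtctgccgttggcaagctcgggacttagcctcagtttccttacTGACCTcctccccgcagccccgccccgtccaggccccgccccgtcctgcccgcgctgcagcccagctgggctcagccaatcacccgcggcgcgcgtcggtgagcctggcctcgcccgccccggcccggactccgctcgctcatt
Slc27a2: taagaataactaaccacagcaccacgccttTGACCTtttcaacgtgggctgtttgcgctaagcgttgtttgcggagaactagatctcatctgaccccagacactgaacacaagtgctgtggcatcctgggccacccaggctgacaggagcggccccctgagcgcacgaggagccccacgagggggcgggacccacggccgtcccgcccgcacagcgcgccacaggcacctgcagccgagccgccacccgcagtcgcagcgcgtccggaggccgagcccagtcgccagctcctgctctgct
Oxct1: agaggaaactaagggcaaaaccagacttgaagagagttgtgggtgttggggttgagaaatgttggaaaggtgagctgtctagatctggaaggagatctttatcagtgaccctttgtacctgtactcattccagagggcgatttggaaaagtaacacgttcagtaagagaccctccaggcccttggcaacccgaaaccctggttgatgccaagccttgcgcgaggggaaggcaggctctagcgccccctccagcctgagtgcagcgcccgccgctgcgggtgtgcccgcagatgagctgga

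The hexamer was found once in the Cpt1a window, with its first base at -94 from the transcript start, once in the Slc27a2 window with its first base at -220, and not in the Oxct1 window. A promoter window was at hand for 27 members, and 5 of these (Acadm, Acadvl, Cpt1a, Echs1 and Slc27a2) held the hexamer on either strand, or 18.5%, against 18.1% of 27025 genes. The direct repeat of the hexamer with 1 base between (DR1), the form bound by PPAR alpha with its partner RXR, was in no member's window when matched exactly and in those of 0.0481% of all genes. With at most 2 mismatches it was in the windows of Echs1, Etfa and Slc25a20, or 11.1% of the members, against 4.4% of all genes. An exact DR1 holds the hexamer by construction, and a DR1 with mismatches need not. Of these windows only that of Echs1 also held the exact hexamer. The oestrogen-related receptor element TCAAGGTCA and the STAT6 element TTCNNNNGAA, also sought on both strands, were in no member's window and in those of 0.466% and 8.01% of all genes; the oestrogen-related element holds the hexamer. Member promoter windows had a median GC content of 60.7% against 52.7% for all promoter windows, and the shares were not matched for it. A match is a description of the letters, not a site of binding.

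In Untreated enteroids the members spanned a wide range when their CPM was divided by exon length in kilobases. That length was the union of all annotated exons of a gene, from 1164 bases for Etfb to 10483 for Acsl1. It may exceed the transcripts present, so the order of genes depends on the annotation as well as on the counts. Oxct1, Bdh1 and Hadh stood highest, at 96.1 ± 6.27, 92.3 ± 5.39 and 90.7 ± 2.92 CPM per kb (SD, n = 3), and these did not differ from each other beyond their spread. Etfb followed at 69.2 ± 6.12, then Cpt2 at 40.5 ± 2.3, Ehhadh at 35.95 ± 2.55 and Acaa2 at 35.3 ± 1.47, and Ehhadh and Acaa2 were again within their spread. The next 22 members, Cpt1a to Etfa, lay between 4.04 (Etfa) and 27.3 CPM per kb (Cpt1a). Ppara, at 3.95 ± 0.57, lay within the spread of Etfa. How reads that map to several places were counted is not given in the sources used, so low levels such as those of Etfa and Hadhb are uncertain. The lowest were Hadhb, at 0.445 ± 0.0456, and Pdk4, at 0.0967 ± 0.0183 CPM per kb.

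Among the ketone body enzymes, Oxct1 rose in every comparison and its 4 groups of libraries did not overlap. Oxct1 encodes succinyl-CoA:3-ketoacid-CoA transferase, which starts the use of acetoacetate, and lies on chromosome 15 from 4026383 to 4155344 (mm10). It stood at 1199, 1059 and 1239 CPM in Butyrate + IL-13 libraries, 899.6, 807 and 799 CPM in IL-13 libraries, 468, 528.5 and 432 CPM in Butyrate libraries and 381, 351 and 335 CPM in Untreated libraries. The log2 fold change was 1.23 ± 0.09 for IL-13 over Untreated (2.35-fold, edgeR adjusted p = 6.86e-09) and 0.42 ± 0.09 for Butyrate over Untreated (adjusted p = 0.0067). In the combined group it was 0.48 ± 0.09 over IL-13 (adjusted p = 0.0011) and 1.29 ± 0.09 over Butyrate (adjusted p = 2.89e-09). The call with butyrate alone was lost without Untreated replicate 3 (log2 fold change 0.38, adjusted p = 0.052). The antisense transcript BC037032 shares 467 exon bases with Oxct1, and no source used here says whether counting used strand. The same limit holds for other members with opposite-strand exon overlaps. Among them are Acsl1 (Gm45244, 1039 bases), Bdh1 (Gm15743, 533), Slc27a2 (Gm26697, 419), Crat (Gm16323, 411), Acss2 (Gss, 395) and Acss1 (E130215H24Rik, 113).

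Bdh1, the mitochondrial enzyme that interconverts acetoacetate and beta-hydroxybutyrate, rose in the combined group over either single agent and was not called for either agent over Untreated. Its libraries had 454.5, 499 and 539.6 CPM with Butyrate + IL-13, 316, 362 and 343 CPM with IL-13, 402, 375 and 456 CPM with Butyrate and 383, 347 and 346 CPM in Untreated enteroids. The combined libraries all lay above the IL-13 libraries but overlapped with Butyrate. The fitted log2 fold change was 0.55 ± 0.09 over IL-13 (edgeR adjusted p = 0.00036) and 0.28 ± 0.09 over Butyrate (adjusted p = 0.018). The second of these was lost with plain library totals (0.05, adjusted p = 0.66), in a fit of only those groups (adjusted p = 0.053), without Butyrate replicate 1, Butyrate replicate 2 or Butyrate + IL-13 replicate 3 (adjusted p = 0.063, 0.067 and 0.058) and without both libraries highest in Lars2 (0.15, adjusted p = 0.22). IL-13 over Untreated was not called at -0.08 ± 0.09, and with plain library totals it was (-0.24, adjusted p = 0.027).

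Acat1, the mitochondrial acetoacetyl-CoA thiolase, had 94.2, 86.2 and 67.5 CPM in Butyrate + IL-13 libraries, 66.4, 65.8 and 65.5 CPM in IL-13 libraries, 77.6, 85.1 and 66.8 CPM in Butyrate libraries and 72.7, 74.8 and 73.8 CPM in Untreated libraries. The combined libraries were all above the IL-13 ones, by a small margin in replicate 3, and the log2 fold change of 0.33 ± 0.11 was close to the threshold (edgeR adjusted p = 0.043). That call was lost under 10 alternatives, at adjusted p between 0.056 and 0.22: plain library totals, and leaving out any 1 library other than Butyrate replicate 2, Butyrate replicate 3 and Butyrate + IL-13 replicate 3. Over Butyrate the value was 0.11 ± 0.11 and was not called, but it was called at 0.26 without Butyrate + IL-13 replicate 3 (adjusted p = 0.047) and at 0.32 without both libraries highest in Lars2 (adjusted p = 0.012). IL-13 over Untreated was not called at -0.16 ± 0.11, and was with plain library totals (-0.33, adjusted p = 0.024) and in a fit of only those groups (-0.17, adjusted p = 0.043).

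Of 11 further genes listed for ketone synthesis and use, 6 were tested, too few for shares to be read against those of all genes. With IL-13 over Untreated 1 rose and 2 fell, with Butyrate over Untreated 2 rose, with Butyrate + IL-13 over IL-13 1 rose, and with Butyrate + IL-13 over Butyrate 2 rose and 2 fell. Oxct2b, a paralog of Oxct1, averaged 15.4 ± 1.57 CPM with Butyrate + IL-13, 8.77 ± 1.2 with IL-13, 4.66 ± 0.981 with Butyrate and 2.57 ± 0.238 in Untreated enteroids (SD, n = 3 each), and was called in all 4 comparisons; reads shared with its close copy Oxct2a may make the count uncertain. Acat2, the cytosolic thiolase of cholesterol synthesis, fell with IL-13 over Untreated, to 38.3 ± 0.858 CPM against 93 ± 14.9 CPM (log2 fold change -1.28 ± 0.14, edgeR adjusted p = 1.17e-06).

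**Figure D2:**
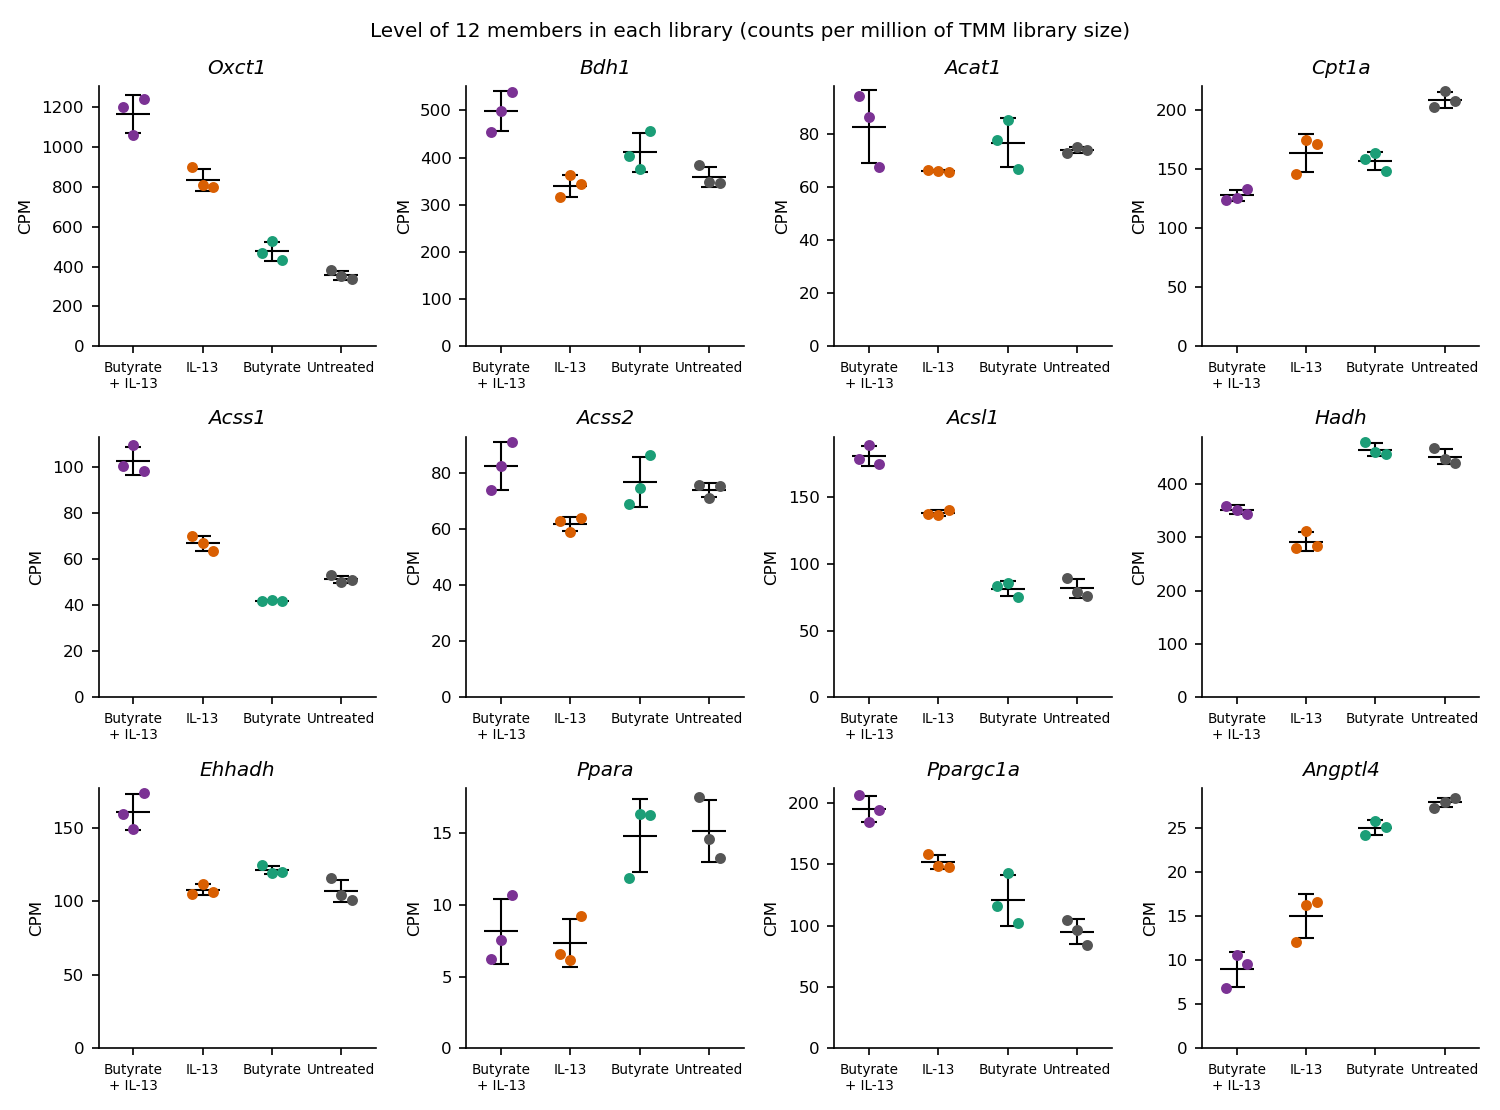
CPM of 12 members in each library (points), with the mean and SD of 3 libraries per group (bars). Oxct1 ran from 335 CPM in an Untreated library to 1239 CPM in a Butyrate + IL-13 library without overlap between groups, and the Acss1 libraries were highest with both agents and lowest with Butyrate.

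Among the acyl-CoA synthetases, Acss1 was the 1 member called for the interaction of the agents. Acss1, the mitochondrial acetyl-CoA synthetase that activates acetate, lies on chromosome 2 from 150618105 to 150668500. Its libraries had 100.6, 109.8 and 98.4 CPM with Butyrate + IL-13, 69.9, 67.2 and 63.6 CPM with IL-13, 41.7, 42.1 and 42 CPM with Butyrate, and 53.1, 49.95 and 50.9 CPM in Untreated enteroids. No pair of groups overlapped: libraries given butyrate were the lower ones without IL-13 and the higher ones with it. On the log2 scale the fold change was -0.29 ± 0.08 for Butyrate over Untreated (edgeR adjusted p = 0.031) and 0.62 ± 0.08 for Butyrate + IL-13 over IL-13 (adjusted p = 3.47e-05). The interaction, which is the response to butyrate with IL-13 minus the response without it, was 0.91 ± 0.11 on the log2 scale (adjusted p = 0.00065), and its adjusted p lay between 4.91e-13 and 0.0059 over the alternatives run. IL-13 raised Acss1 by 0.38 ± 0.08 over Untreated (adjusted p = 0.00084) and by 1.29 ± 0.08 over Butyrate (adjusted p = 5.07e-10). The fall with butyrate alone was lost without any 1 of Untreated replicates 1, 2 and 3 (adjusted p = 0.11, 0.082 and 0.095), without Butyrate replicate 1 or 2 (adjusted p = 0.11 and 0.057), with no filter (adjusted p = 0.056) and in a fit of only those groups (adjusted p = 0.067).

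Acss2, the nucleocytosolic acetyl-CoA synthetase, had 74, 82.4 and 91.1 CPM with Butyrate + IL-13, 62.7, 58.8 and 63.7 CPM with IL-13, 68.8, 74.7 and 86.5 CPM with Butyrate and 75.5, 71 and 75.2 CPM in Untreated enteroids. The IL-13 libraries were below those of every other group. Acss2 rose in the combined group over IL-13 (0.42 ± 0.1, edgeR adjusted p = 0.0053) and fell with IL-13 over Untreated (-0.26 ± 0.1, adjusted p = 0.038). This fall was lost on leaving out any 1 of the 6 libraries compared, at adjusted p between 0.058 and 0.13.

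Acsl1, a long-chain acyl-CoA synthetase, rose with IL-13 in both settings. It had 178, 189 and 175 CPM with Butyrate + IL-13, 138, 137 and 141 CPM with IL-13, 83.1, 86 and 74.9 CPM with Butyrate and 89.8, 79.3 and 75.8 CPM in Untreated enteroids, so that Butyrate and Untreated libraries overlapped and the groups given IL-13 did not. The log2 fold change was 0.76 ± 0.08 for IL-13 over Untreated (edgeR adjusted p = 8.51e-07), 1.15 ± 0.08 for Butyrate + IL-13 over Butyrate (adjusted p = 3.64e-09) and 0.39 ± 0.08 for Butyrate + IL-13 over IL-13 (adjusted p = 0.0028). Its interaction of 0.39 ± 0.12 was not called (adjusted p = 0.16) except by DESeq2 (adjusted p = 0.038).

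Slc27a2, a very long-chain acyl-CoA synthetase and fatty acid transport protein, fell with each agent. Its libraries had 29.5, 34.3 and 29.6 CPM with Butyrate + IL-13, 33.7, 36.1 and 33.3 CPM with IL-13, 37.8, 36.2 and 38.5 CPM with Butyrate and 54.8, 53.3 and 49.7 CPM in Untreated enteroids. All 9 treated libraries lay below the Untreated ones. The fitted log2 fold change was -0.62 ± 0.09 for IL-13 over Untreated (edgeR adjusted p = 3.14e-05) and -0.49 ± 0.09 for Butyrate over Untreated (adjusted p = 0.002). The fall of the combined group below Butyrate, -0.27 ± 0.09 (adjusted p = 0.025), was lost without Butyrate replicate 1 (adjusted p = 0.068), Butyrate + IL-13 replicate 1 (0.13) or Butyrate + IL-13 replicate 3 (0.12), without both libraries highest in Lars2 (0.076) and in a fit of only those groups (0.096).

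In the carnitine shuttle Cpt1a fell in all 4 comparisons, while Crat and Slc25a20 rose where IL-13 was compared and were not called where butyrate was. Cpt1a, which makes acylcarnitine at the outer mitochondrial membrane and is the main control point of entry, lies on chromosome 19 from 3323301 to 3385732. Its libraries had 124, 126 and 133 CPM with Butyrate + IL-13, 145.5, 175 and 171 CPM with IL-13, 159, 164 and 149 CPM with Butyrate and 203, 216 and 207 CPM in Untreated enteroids. The combined libraries were the lowest and the Untreated libraries the highest, without overlap; the single agents overlapped with each other. On the log2 scale the fold change was -0.35 ± 0.08 for IL-13 over Untreated (edgeR adjusted p = 0.0022), -0.41 ± 0.08 for Butyrate over Untreated (adjusted p = 0.0037), -0.36 ± 0.08 for Butyrate + IL-13 over IL-13 (adjusted p = 0.0047) and -0.3 ± 0.08 for Butyrate + IL-13 over Butyrate (adjusted p = 0.0063). Its interaction, 0.05 ± 0.12, was not called (adjusted p = 0.95). These 4 calls were kept under every alternative run.

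Crat, which moves short acyl groups between carnitine and CoA, had 109.6, 127 and 133 CPM with Butyrate + IL-13, 102, 114 and 102 CPM with IL-13, 64.5, 52 and 81.4 CPM with Butyrate and 63.5, 65.1 and 61.5 CPM in Untreated enteroids. The groups given IL-13 lay above those without it. Crat rose by 0.74 ± 0.12 with IL-13 over Untreated (edgeR adjusted p = 8.79e-05) and by 0.9 ± 0.12 with Butyrate + IL-13 over Butyrate (adjusted p = 8.62e-06). Slc25a20, the carnitine-acylcarnitine translocase of the inner membrane, averaged 70.1 ± 8.47 CPM with both agents, 63.7 ± 3.11 with IL-13, 45.8 ± 2.98 with Butyrate and 47.8 ± 2.41 in Untreated enteroids, and was called higher in the same pair of comparisons. Cpt2, which re-forms acyl-CoA inside the mitochondrion, rose only in the combined group over Butyrate among these comparisons (115 ± 13.4 against 87.3 ± 5.62 CPM, log2 fold change 0.4 ± 0.09, adjusted p = 0.0012). With plain library totals that value was 0.17 (adjusted p = 0.096), and without both libraries highest in Lars2 it was 0.25 (adjusted p = 0.03).

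The acyl-CoA dehydrogenases, which are split by the chain length they act on, did not move together with IL-13. Acadvl, the very long-chain enzyme, had 64.9, 75.5 and 72.6 CPM with Butyrate + IL-13, 63.6, 64 and 62.2 CPM with IL-13, 42.2, 36 and 45.5 CPM with Butyrate and 39.4, 41.7 and 37.7 CPM in Untreated enteroids. It rose with IL-13 over Untreated by 0.68 ± 0.1 (edgeR adjusted p = 1.89e-05) and with Butyrate + IL-13 over Butyrate by 0.78 ± 0.1 (adjusted p = 2.72e-06), without overlap between those groups. The gene Dvl2 lies on the opposite strand and shares 1151 exon bases with it, so its count is uncertain if strand was not used.

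Acads, the short-chain enzyme that acts on butyryl-CoA, had 29.3, 30.2 and 35.5 CPM with Butyrate + IL-13, 28.6, 31 and 36.2 CPM with IL-13, 39.98, 37.7 and 47.9 CPM with Butyrate and 46, 47.9 and 49.2 CPM in Untreated enteroids. It fell with IL-13 over Untreated (-0.58 ± 0.11, edgeR adjusted p = 0.00051) and with Butyrate + IL-13 over Butyrate (-0.4 ± 0.12, adjusted p = 0.0083), where the call was lost without Butyrate + IL-13 replicate 1 (adjusted p = 0.051). Butyrate, its substrate once activated, gave -0.19 ± 0.11 over Untreated, which was not called (adjusted p = 0.36).

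Acadm, the medium-chain enzyme, had 60.3, 51.5 and 61.4 CPM with Butyrate + IL-13, 55.9, 53.6 and 44.7 CPM with IL-13, 57.6, 53 and 55.5 CPM with Butyrate and 58.8, 58.3 and 52.6 CPM in Untreated enteroids. Its groups overlapped in all 4 comparisons and none was called, at log2 values between -0.14 and 0.17. With plain library totals IL-13 over Untreated was called lower (-0.31, adjusted p = 0.015). Acadl, the long-chain enzyme, averaged 31.5 ± 5.21 CPM with both agents, 22.8 ± 1.93 with IL-13, 33 ± 1.48 with Butyrate and 29.5 ± 2.38 in Untreated enteroids. It fell with IL-13 over Untreated (-0.37 ± 0.12, edgeR adjusted p = 0.017), a call lost without Untreated replicate 1 (0.082) or IL-13 replicate 3 (0.083). It rose in the combined group over IL-13 (0.47 ± 0.12, adjusted p = 0.011), a call lost without IL-13 replicate 3 (0.061), Butyrate + IL-13 replicate 3 (0.064) or both libraries highest in Lars2 (0.068).

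The later steps of the spiral also split. Hadh, the mitochondrial enzyme of the second dehydrogenation for short and medium chains, fell with IL-13 and was partly higher again with butyrate. Its libraries had 359.9, 352 and 343 CPM with Butyrate + IL-13, 280.5, 312 and 284 CPM with IL-13, 478, 460.2 and 456 CPM with Butyrate and 467, 448 and 439 CPM in Untreated enteroids. Butyrate and Untreated overlapped, the combined libraries lay below both, and the IL-13 libraries were the lowest. The log2 fold change was -0.63 ± 0.07 for IL-13 over Untreated (edgeR adjusted p = 1.48e-06), -0.4 ± 0.07 for Butyrate + IL-13 over Butyrate (adjusted p = 0.00016) and 0.27 ± 0.07 for Butyrate + IL-13 over IL-13 (adjusted p = 0.013). The last of these was lost with plain library totals (0.14, adjusted p = 0.16) and without IL-13 replicate 1 or 3 (adjusted p = 0.057 and 0.059).

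Acaa2, a mitochondrial thiolase that ends each round, had 34.1, 32.2 and 33.5 CPM with Butyrate + IL-13, 37.1, 36.7 and 40.4 CPM with IL-13, 41.9, 38.7 and 48.5 CPM with Butyrate and 50.9, 54.6 and 54.9 CPM in Untreated enteroids. It fell with IL-13 over Untreated (-0.49 ± 0.1, edgeR adjusted p = 0.00047) and with Butyrate + IL-13 over Butyrate (-0.37 ± 0.1, adjusted p = 0.0045). The fall with Butyrate over Untreated (-0.31 ± 0.09) sat at the threshold (adjusted p = 0.049), though those groups did not overlap. It was lost under 15 alternatives, at adjusted p between 0.051 and 0.18: RLE scaling, no filter, a fit of only those groups, both libraries highest in Lars2 left out, and any 1 library left out other than Butyrate replicate 3. Butyrate + IL-13 over IL-13 was not called at -0.2 ± 0.1, and was called lower with plain library totals (-0.32, adjusted p = 0.025).

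Hadha, the subunit of the trifunctional protein that hydrates and dehydrogenates long chains, had 125, 133 and 149.9 CPM with Butyrate + IL-13, 101, 127 and 123 CPM with IL-13, 95.3, 89.6 and 106 CPM with Butyrate and 98.3, 95.1 and 98.6 CPM in Untreated enteroids. It rose in the combined group over Butyrate (0.49 ± 0.1, edgeR adjusted p = 0.00044). The rise with IL-13 over Untreated (0.26 ± 0.1, adjusted p = 0.034) was lost with plain library totals (0.1, adjusted p = 0.42), without any 1 of Untreated replicates 1, 2 and 3 (0.069, 0.1 and 0.07) and without IL-13 replicate 2 or 3 (0.16 and 0.12). Echs1, the short-chain enoyl-CoA hydratase, averaged 205 ± 3.36 CPM with both agents, 157 ± 7.38 with IL-13, 131 ± 6.3 with Butyrate and 113 ± 5.56 in Untreated enteroids. It rose with IL-13 over Untreated (0.47 ± 0.07, adjusted p = 6.12e-05), in the combined group over IL-13 (0.39 ± 0.07, adjusted p = 0.0012) and over Butyrate (0.64 ± 0.07, adjusted p = 1.29e-06). Its value of 0.22 ± 0.07 for Butyrate over Untreated was not called by edgeR (adjusted p = 0.091) and was by DESeq2 (adjusted p = 0.022).

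Ehhadh, the peroxisomal bifunctional enzyme, moved where butyrate met IL-13. It had 159.6, 149 and 173 CPM with Butyrate + IL-13, 105, 112 and 106 CPM with IL-13, 125, 119.5 and 120.2 CPM with Butyrate and 116, 105 and 101 CPM in Untreated enteroids. The combined libraries lay above all others, and it rose by 0.58 ± 0.08 over IL-13 (edgeR adjusted p = 8.34e-05) and by 0.4 ± 0.08 over Butyrate (adjusted p = 0.00044; 0.17 and adjusted p = 0.063 with plain library totals). IL-13 over Untreated gave 0.01 ± 0.08 and Butyrate over Untreated 0.18 ± 0.08, neither called. The interaction, 0.39 ± 0.11, was not called by edgeR (adjusted p = 0.14) and was by DESeq2 (adjusted p = 0.022). Hadhb, the partner subunit of Hadha, stayed between 2.43 and 4.9 CPM in all libraries and was not called; IL-13 over Untreated gave 0.54 ± 0.25 (adjusted p = 0.082), with an adjusted p of 0.045 in a fit of only those groups.

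The auxiliary enzymes handle double bonds that the core spiral cannot. Eci1, an enoyl-CoA isomerase of mitochondria, and Decr1, the dienoyl-CoA reductase, fell with IL-13 over Untreated, with log2 fold changes of -0.41 ± 0.1 and -0.33 ± 0.1 (edgeR adjusted p = 0.0021 and 0.0096; Decr1 was not called without IL-13 replicate 3, adjusted p = 0.066). Decr1 over IL-13 in the combined group was not called at 0.23 ± 0.1, and was called at 0.32 without IL-13 replicate 1 (adjusted p = 0.042). Eci2 and Ech1, whose products act on enoyl-CoA in mitochondria and peroxisomes, rose in the combined group over Butyrate: Eci2 averaged 32.2 ± 1.54 against 21.8 ± 2.61 CPM (0.56 ± 0.11, adjusted p = 0.00031) and Ech1 68.6 ± 0.487 against 53.4 ± 3.69 CPM (0.36 ± 0.11, adjusted p = 0.011). The Ech1 call was lost with plain library totals (adjusted p = 0.33) and without both libraries highest in Lars2 (adjusted p = 0.059). No auxiliary enzyme was called with Butyrate over Untreated or with Butyrate + IL-13 over IL-13.

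All 3 genes of the electron transfer chain out of the spiral rose in the combined group over Butyrate. Etfdh, the oxidoreductase that passes electrons to ubiquinone, averaged 114.5 ± 5.96 CPM with both agents, 109 ± 7.77 with IL-13, 81.6 ± 4.4 with Butyrate and 83.5 ± 4.8 in Untreated enteroids, and rose with IL-13 over Untreated (0.38 ± 0.08, edgeR adjusted p = 0.0012) and over Butyrate (0.49 ± 0.08, adjusted p = 0.0001). Etfa and Etfb, the subunits of the flavoprotein, rose over Butyrate by 0.65 ± 0.17 and 0.41 ± 0.12 (adjusted p = 0.0046 and 0.0085). The Etfb call was lost with plain library totals (adjusted p = 0.2) and without both libraries highest in Lars2 (0.25, adjusted p = 0.11). Over IL-13, Etfb in the combined group was called only without Butyrate + IL-13 replicate 1 among the alternatives run (adjusted p = 0.047). Etfa with IL-13 over Untreated was not called at 0.4 ± 0.17 (adjusted p = 0.075) and was without Untreated replicate 1 (adjusted p = 0.035).

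The regulators and targets moved apart. Ppara, the nuclear receptor that switches on fatty acid oxidation genes, fell with IL-13: its libraries had 6.25, 7.57 and 10.7 CPM with Butyrate + IL-13, 6.56, 6.18 and 9.26 CPM with IL-13, 11.9, 16.3 and 16.3 CPM with Butyrate and 17.6, 14.6 and 13.3 CPM in Untreated enteroids. The groups with IL-13 lay below those without it. The fitted log2 fold change was -1.05 ± 0.2 for IL-13 over Untreated (edgeR adjusted p = 0.0004) and -0.85 ± 0.2 for Butyrate + IL-13 over Butyrate (adjusted p = 0.0021). Butyrate over Untreated gave -0.04 ± 0.19 (adjusted p = 0.94). Butyrate + IL-13 over IL-13 gave 0.16 ± 0.22 (adjusted p = 0.66), and neither was called.

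Ppargc1a, the coactivator of mitochondrial biogenesis that partners PPAR alpha, rose in both comparisons of IL-13, where its partner fell. It had 206, 185 and 194 CPM with Butyrate + IL-13, 159, 149 and 148 CPM with IL-13, 116, 143 and 102.5 CPM with Butyrate and 105, 96.1 and 84.7 CPM in Untreated enteroids. The combined libraries lay above all others, and Butyrate and Untreated overlapped. On the log2 scale the fold change was 0.67 ± 0.11 for IL-13 over Untreated (edgeR adjusted p = 6.17e-05), 0.7 ± 0.11 for Butyrate + IL-13 over Butyrate (adjusted p = 3.42e-05) and 0.36 ± 0.11 for Butyrate + IL-13 over IL-13 (adjusted p = 0.022). The last was lost with plain library totals (0.24, adjusted p = 0.11), without IL-13 replicate 2 or 3 (0.074 and 0.082) and without Butyrate + IL-13 replicate 1 (0.054). Butyrate over Untreated, 0.34 ± 0.11, missed the threshold (adjusted p = 0.0597) and passed it with no filter (0.039), by DESeq2 (0.035), without Untreated replicate 1 (0.048) and without Butyrate replicate 3 (0.0064).

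Angptl4, a secreted inhibitor of lipoprotein lipase and a standard PPAR target, fell most among the members in the combined group. Its libraries had 6.8, 10.6 and 9.58 CPM with Butyrate + IL-13, 12.1, 16.3 and 16.7 CPM with IL-13, 24.2, 25.9 and 25.2 CPM with Butyrate and 27.4, 28 and 28.5 CPM in Untreated enteroids. No pair of groups overlapped, and the order ran from the combined group at the bottom to Untreated at the top. The log2 fold change was -0.89 ± 0.14 for IL-13 over Untreated (edgeR adjusted p = 5.52e-05), -1.48 ± 0.15 for Butyrate + IL-13 over Butyrate (adjusted p = 2.6e-07) and -0.74 ± 0.16 for Butyrate + IL-13 over IL-13 (adjusted p = 0.0026), while Butyrate over Untreated gave -0.16 ± 0.13 (adjusted p = 0.56). Its interaction of -0.59 ± 0.21 was not called (adjusted p = 0.25). Pdk4, the kinase that turns off pyruvate dehydrogenase, had 0, 5 and 0 counts with Butyrate + IL-13, 6, 2 and 5 with IL-13, 0, 5 and 1 with Butyrate and 8, 10 and 5 in Untreated enteroids, too few to be tested.

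The interaction was positive for most members but called for 1. Over the 31 members tested the response to butyrate was fitted higher with IL-13 than without it for 29, with a median of 0.22, where 45.7% of all genes had a positive value and their median was -0.02. Of these, 1 was called higher and 0 lower, or 3.23% and 0% of the members, against 0.255% and 0.611% of all genes; 11 members had an unadjusted p under 0.05 and DESeq2 called 3 (Acss1, Ehhadh and Acsl1). The exceptions in sign were Angptl4 and Hadhb. The members share the same 12 libraries and the list was drawn up with earlier results of these data known, so no p is given for the list.

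**Figure D3:**
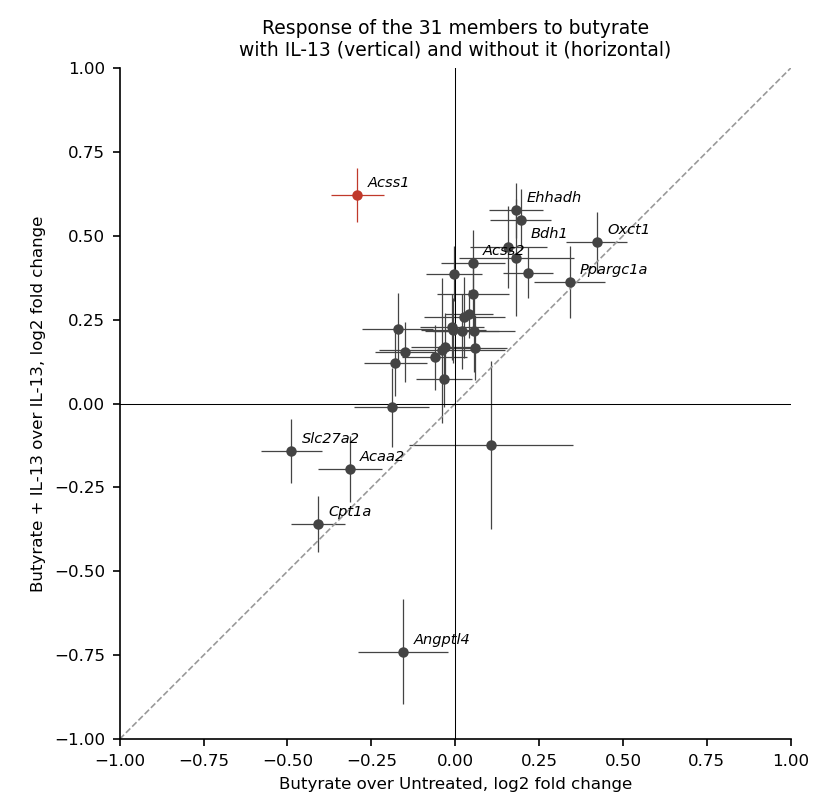
Log2 fold change with standard error of the 31 members tested for Butyrate + IL-13 over IL-13 (vertical axis) and for Butyrate over Untreated (horizontal axis); the dashed line marks equal values and Acss1, the member called for the interaction, is in red. Of the 31 points 29 lie above the line, and Acss1 has 0.62 with IL-13 and -0.29 without it.

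As a description with no test, the median over the members was highest in the combined group. The median member's log2(CPM + 1) exceeded its Untreated mean by 0.35 to 0.39 in Butyrate + IL-13 libraries, against -0.02 to 0.07 in IL-13 libraries, -0.08 to 0.04 in Butyrate libraries and -0.04 to 0.05 in Untreated libraries, where the median of all genes stayed between -0.05 and 0.01 throughout. With plain library totals the combined libraries had 0.06 to 0.12, with all genes at -0.33 to -0.29. The members had a summed level of 4197 to 4492 CPM with Butyrate + IL-13, 3363 to 3493 with IL-13, 3089 to 3129 with Butyrate and 2893 to 3045 in Untreated enteroids. Oxct1 alone made up 25.2% to 28.2%, 23.1% to 26.3%, 13.8% to 17.1% and 11.6% to 12.5% of the member counts in those groups, in the same order. Without it the sums were 3050 to 3253, 2518 to 2686, 2560 to 2696 and 2557 to 2664 CPM, where the combined group lay above the other groups, which overlapped. That order did not hold with plain library totals. As a share of plain library totals the members without Oxct1 made up 0.2744% to 0.2848% with Butyrate + IL-13, 0.2453% to 0.2609% with IL-13, 0.269% to 0.28% with Butyrate and 0.283% to 0.2887% in Untreated enteroids. By that measure the combined group overlapped with Untreated and the single-agent groups lay below it.

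**Figure D4:**
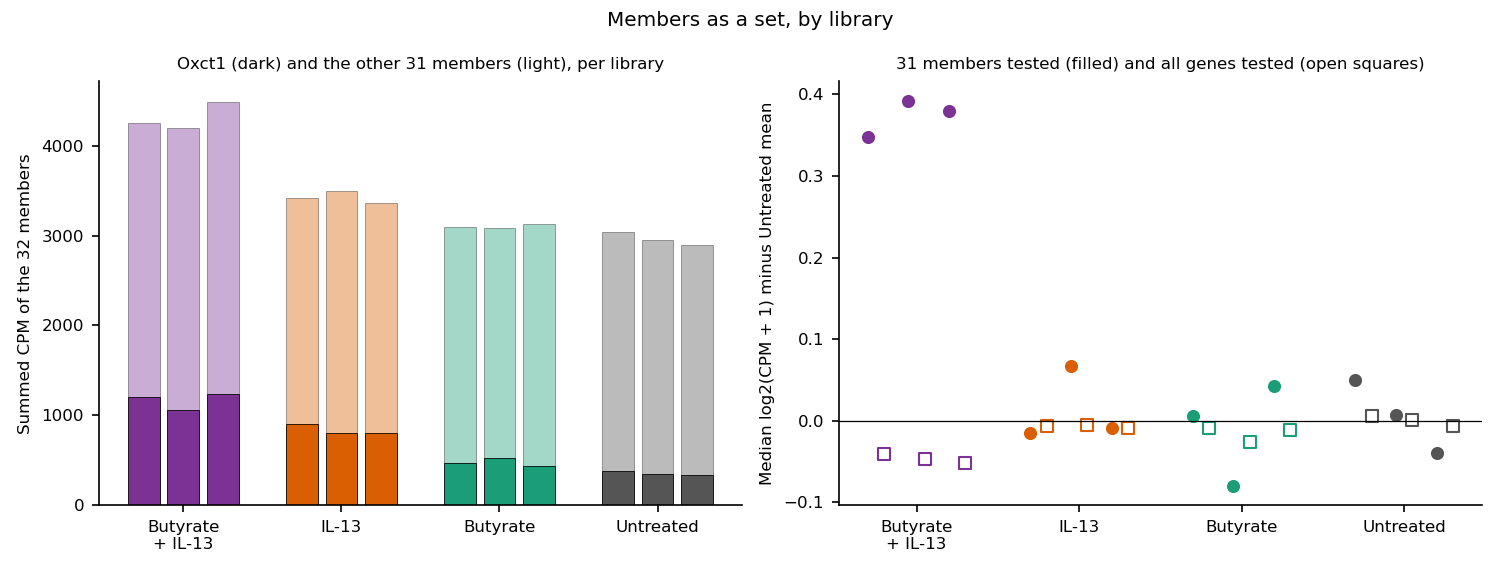
Left, summed CPM of the 32 members in each library, split into Oxct1 (dark) and the other 31 (light). Right, the median over the 31 members tested (filled circles) and over all 13750 genes tested (open squares) of log2(CPM + 1) minus the Untreated mean; the 3 Butyrate + IL-13 libraries lie at 0.35 to 0.39 for the members and at -0.05 to -0.04 for all genes.

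Other lipid genes were counted on 6 lists of 106 genes, 87 of them tested. None was called for the interaction, for which 0.255% of all genes were called higher and 0.611% lower. At such low shares the lack of calls among 87 genes says little. Shares of each list are read against those of all genes, which were 21.8% higher and 21.7% lower for IL-13 over Untreated, 5.14% and 2.76% for Butyrate over Untreated, 9.85% and 11.3% for Butyrate + IL-13 over IL-13, and 22.9% and 24.9% for Butyrate + IL-13 over Butyrate. Of 15 peroxisomal beta-oxidation genes, 6 rose and 2 fell with IL-13 over Untreated (40% and 13.3%), 2 rose with Butyrate over Untreated (13.3%), 4 rose with Butyrate + IL-13 over IL-13 (26.7%), and 5 rose and 3 fell over Butyrate (33.3% and 20%). Acox3, a peroxisomal acyl-CoA oxidase, averaged 140.7 ± 9.84 CPM with both agents, 102 ± 5.88 with IL-13, 68 ± 2.6 with Butyrate and 58.7 ± 3 in Untreated enteroids. Phyh, which starts the breakdown of phytanic acid, was called higher in all 4 comparisons, by 0.46 ± 0.08, 0.44 ± 0.08, 0.68 ± 0.08 and 0.7 ± 0.08 on the log2 scale in the order just given. Of 19 further mitochondrial genes, mainly of branched-chain and propionate oxidation, 0 rose and 7 fell with IL-13 over Untreated (0% and 36.8%), 0 were called with Butyrate over Untreated, 2 rose over IL-13 (10.5%, near that of all genes), and 3 rose and 3 fell over Butyrate (15.8% each) in the combined group. Ivd, of leucine breakdown, fell with IL-13 (-0.73 ± 0.09, edgeR adjusted p = 2.43e-06), and Hibadh, of valine breakdown, rose over IL-13 in the combined group (0.63 ± 0.09, adjusted p = 0.00014).

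Of 14 further acyl-CoA synthetase and fatty acid transport genes, 3 rose and 6 fell with IL-13 over Untreated (21.4% and 42.9%), 3 rose and 2 fell with Butyrate over Untreated (21.4% and 14.3%), 4 rose and 3 fell with Butyrate + IL-13 over IL-13 (28.6% and 21.4%), and 3 rose and 4 fell over Butyrate (21.4% and 28.6%). The share higher with IL-13 over Untreated and both shares over Butyrate were near those of all genes. Acsf2, a medium-chain synthetase, averaged 100.2 ± 2.56 CPM with both agents, 40.1 ± 5.09 with IL-13, 28 ± 1.31 with Butyrate and 15 ± 1.37 in Untreated enteroids and rose in all 4 comparisons. Fabp2, the intestinal fatty acid binding protein, fell in all 4, with 6.08 ± 1.38, 11.7 ± 1.55, 31.3 ± 1.28 and 43.4 ± 1.7 CPM in the same order of groups. Of 21 other PPAR alpha targets and regulators, 11 rose and 5 fell with IL-13 over Untreated (52.4% and 23.8%), 3 rose and 1 fell with Butyrate over Untreated (14.3% and 4.76%), 9 rose and 1 fell over IL-13 (42.9% and 4.76%) and 13 rose and 3 fell over Butyrate (61.9% and 14.3%). The list mixes targets with regulators. Those lower with IL-13 over Untreated were Pdk1, Pdk3, Plin2, Ucp2 and Vnn1, and those lower over Butyrate were Pdk3, Plin2 and Ucp2. Cidec, a lipid droplet protein, averaged 145 ± 13.9, 88.5 ± 2.02, 45.7 ± 7.13 and 25 ± 0.71 CPM in that order of groups and rose in all 4 comparisons, and Ppargc1b, the relative of Ppargc1a, rose with IL-13 over Untreated (1.05 ± 0.13, edgeR adjusted p = 2.34e-06) and over Butyrate (1.33 ± 0.13, adjusted p = 1.01e-07). Of 12 lipid droplet and triglyceride genes, 8 rose and 1 fell with IL-13 in each setting (66.7% and 8.33%), 2 rose with Butyrate over Untreated (16.7%), and 5 rose and 1 fell over IL-13 in the combined group (41.7% and 8.33%). Agpat2, of glycerolipid synthesis, averaged 491 ± 94.3, 379 ± 7.16, 117 ± 21.7 and 107 ± 5.89 CPM in the same order, and Mogat2, the enterocyte monoacylglycerol acyltransferase, 260.1 ± 12.5, 225 ± 5.64, 167 ± 10 and 123 ± 7.24 CPM.

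Markers of several epithelial cell types were called as well. Their shares are read against those of all genes called. These were 21.8% higher and 21.7% lower for IL-13 over Untreated, and 5.14% and 2.76% for Butyrate over Untreated. For Butyrate + IL-13 they were 9.85% and 11.3% over IL-13, and 22.9% and 24.9% over Butyrate. The lists hold 5 to 15 genes, so a single gene moves a share widely. Of 15 absorptive enterocyte markers, 10 rose and 1 fell with IL-13 over Untreated (66.7% and 6.67%). With Butyrate over Untreated, 9 rose and 1 fell (60% and 6.67%). In the combined group 8 rose and 2 fell over IL-13 (53.3% and 13.3%), and 9 rose and 1 fell over Butyrate (60% and 6.67%). Their summed level was 13097 to 17888 CPM with both agents, 10737 to 11631 with IL-13, 10221 to 10508 with Butyrate and 6831 to 7770 in Untreated enteroids, with none at 0. All 12 proliferation markers (100%) fell with IL-13 over Untreated and over Butyrate. Of these, 8 (66.7%) fell with Butyrate + IL-13 over IL-13 and none was called with Butyrate over Untreated. Their sums were 242 to 282, 324 to 444, 841 to 945 and 963 to 991 CPM in the same order of groups. Of 7 goblet markers 4 fell with IL-13 over Untreated (57.1%) and 3 with Butyrate over Untreated (42.9%). In the combined group 5 fell over IL-13 (71.4%) and all 7 over Butyrate (100%). Their sums were 1312 to 1434, 2154 to 3056, 2374 to 3005 and 3091 to 4603 CPM in that order of groups. All 5 tuft cell markers tested rose with IL-13 over Untreated (100%), and 4 fell with Butyrate over Untreated (80%). In the combined group all 5 fell relative to IL-13 (100%), and 4 rose over Butyrate (80%). Their sums were 10.8 to 16.7, 58.9 to 72.4, 3.85 to 7.9 and 12.9 to 19.7 CPM. Of 6 enteroendocrine markers 1 fell with IL-13 over Untreated (16.7%, below that of all genes) and 5 fell with Butyrate over Untreated (83.3%). In the combined group all 6 fell over IL-13 and over Butyrate (100% each). Their sums were 166 to 296, 1151 to 1245, 438 to 538 and 993 to 1325 CPM in the same order of groups. Of 5 Paneth cell markers 1 rose and 3 fell with IL-13 over Untreated (20% and 60%), and 1 rose with Butyrate over Untreated (20%). In the combined group 1 rose and 4 fell over each single agent (20% and 80%). Their sums were 1390 to 2076, 2741 to 3786, 3484 to 4391 and 2168 to 2984 CPM. The share of Paneth markers higher with IL-13 over Untreated and over Butyrate was near that of all genes. Of 5 stem cell markers 3 fell with IL-13 over Untreated (60%), and 1 rose and 2 fell with Butyrate over Untreated (20% and 40%). In the combined group 1 rose and 3 fell over IL-13 (20% and 60%), and 4 fell over Butyrate (80%). Their sums were 149.5 to 169.6, 140.5 to 181, 273 to 297 and 343 to 351 CPM. The part of these marker changes in the changes of the oxidation and ketone genes was not tested. In the authors' deposited table, which compares IL-13 with untreated libraries, 21 members passed an FDR of 0.05. Of these, 10 had higher and 11 had lower values in IL-13 libraries. The share of all genes passing that FDR was not counted. In the edgeR fit of all libraries, 21.8% of all genes were called higher and 21.7% lower in that comparison.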

How the data were processed

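RNA of 12 enteroid libraries, 3 per group, was sequenced; per the labels, libraries were poly(A) selected and directional. The deposited table holds whole-number read counts per gene, which the authors had not normalised, beside the authors' log2 fold changes, p-values and FDR from their own DESeq comparison of untreated and IL-13 libraries per the file headers. Per the submitters' processing notes, reads were placed on mm10; the aligner, counting tool and strand setting are not given in the sources. Its 18092 rows became 18068 genes after the rows of 23 genes were summed.

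The test was that of edgeR 4.0.16 under R 4.3.3 (quasi-likelihood, robust, TMM, filterByExpr), in a single fit of all 12 libraries with a coefficient per group; 13750 genes were tested and 4318 removed, with a biological coefficient of variation of 10.2% and 8 residual degrees of freedom. P-values were adjusted by Benjamini-Hochberg over all genes tested in each of 5 comparisons, and a gene was called under 0.05. No 2 replicates were alike to within sampling noise (their counts gave a chi-square of 3.9 to 37.7 per degree of freedom). Levels per kilobase used the union of annotated GENCODE exons. Promoters came from RefSeq, build GRCm38.p6.

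The 32 members and all gene lists were chosen with earlier results of these data known. Values in every library are given for up to 4 called members per comparison and direction of largest change whose mean count was 50 or more, for members called for the interaction and for 12 fixed members; other lists name up to 2 called genes with the smallest adjusted p. Alternatives were DESeq2 1.42.0, RLE scaling, plain library totals, dropping the filter or raising it to a mean of 50, fits restricted to the groups compared, the replicate number as a block, leaving out single libraries and, chosen after seeing the data, both libraries highest in Lars2 left out. Python 3.11.15 (pandas 2.3.3, numpy 2.4.6, matplotlib 3.10.9) served for sums and plots.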

Additional observations from a re-analysis of the deposited data

Results flagged for a closer look

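The response of Acss1 to butyrate differed between enteroids with and without IL-13, by a test of the difference itself. The log2 fold change was 0.62 ± 0.08 for Butyrate + IL-13 over IL-13 and -0.29 ± 0.08 for Butyrate over Untreated, and the difference between them was 0.91 ± 0.11 (edgeR adjusted p = 0.00065). All 3 Butyrate + IL-13 libraries lay above all 3 IL-13 libraries, and all 3 Butyrate libraries lay below all 3 Untreated ones.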

How the results depend on the processing

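Of 64 calls on members, 46 were kept under every alternative run, 18 were lost in at least 1 and 0 changed direction. Without a filter on low counts, 2 members were called higher and 2 lower with Butyrate over Untreated, against 1 and 4; DESeq2 called 3 higher there and 3 higher for the interaction, against 1, and a fit of only those groups left 2 lower. On leaving out 1 library at a time, the members called with IL-13 over Untreated ran from 9 to 10 higher and 8 to 11 lower, with Butyrate over Untreated from 0 to 2 higher and 2 to 4 lower, with Butyrate + IL-13 over IL-13 from 7 to 11 higher and 2 to 2 lower, and with Butyrate + IL-13 over Butyrate from 16 to 17 higher and 5 to 7 lower; the interaction kept 1 to 1 higher and 0 to 0 lower. The lowest count, 7 higher over IL-13, came without IL-13 replicate 3; 0 higher with Butyrate came without Untreated replicate 3, and 2 lower came without any 1 of Untreated replicates 1 to 3 or Butyrate replicates 1 and 2.

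Plain library totals lost 9 calls and gave 7 others. They moved the median of all genes to -0.18 for IL-13 over Untreated, -0.08 for Butyrate over Untreated, -0.14 for Butyrate + IL-13 over IL-13 and -0.27 for Butyrate + IL-13 over Butyrate; the members' medians were then -0.07, -0.07, 0.09 and 0.13, against 0.1, -0.00 (that is, -0.0048), 0.22 and 0.36 with TMM, so that the median for IL-13 over Untreated changed sign.

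Replicate numbers were tried as a block. Libraries of the same number did not deviate together (correlations from -0.151 to 0.0965 over 18 pairs, with 2 of 12 libraries closest to their own number), so the numbers are not taken to pair the samples. The replicate block gave the same counts of called members: 10 higher and 11 lower with IL-13 over Untreated, 1 and 4 with Butyrate over Untreated, 11 and 2 over IL-13, 17 and 7 over Butyrate, and 1 and 0 for the interaction. Genes with few counts, such as Pdk4, Hadhb and Ppara, are limited by depth.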

Other observations

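Subunits of the same protein complex stood far apart in these counts. Per kilobase of exon, Hadhb had 0.445 ± 0.0456 CPM in Untreated enteroids beside 11.2 ± 0.226 for its partner Hadha, and Etfa had 4.04 ± 0.807 beside 69.2 ± 6.12 for its partner Etfb (SD, n = 3). Etfb shares 617 exon bases with the overlapping gene Gm45233 on the same strand, and Hadha shares 75 exon bases with Garem2 on the opposite strand. The low values of Hadhb and Etfa are uncertain, since the sources do not say how reads that map to several places, such as pseudogenes, were counted; this was not tested.

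Acsf2, which is not among the 32 genes, had larger log2 fold changes than any of them in the combined group: 1.32 ± 0.1 over IL-13 and 1.84 ± 0.1 over Butyrate (edgeR adjusted p = 1.78e-07 and 1.05e-10).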
